A study of Rattus norvegicus with 15 samples.

Results

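The transcripts of 5 genes were followed through bone of rats with and without ovaries: the oestrogen receptors Esr1, Esr2 and Gper1, and the receptor targets Pgr and Greb1. They were picked by gene symbol from the 22468 genes of the table, and each symbol matched 1 entry. No rule on their measured values was used, but earlier results of these data were known. Poly(A)-selected RNA of bone from female Sprague-Dawley rats made up 15 libraries, in 5 groups of 3. Blank rats were untreated and kept their ovaries. Model rats were ovariectomized and carry the condition label osteoporosis, and SYT, YJT and YJZYT rats were ovariectomized too and are known here only by those labels. Zhuanggu Zhitong Capsule, a herbal medicine, is the subject of the study, but no label ties it to a group. The sources used here give no sham operation, age or skeletal site, so the operation itself and the missing ovaries cannot be told apart. Libraries are named by group and replicate number. Nothing says that replicates came from separate animals, and the p-values then reflect only how far these samples spread, which may be technical.

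Oestradiol, made mainly in the ovary, enters cells and binds the nuclear receptors ERα and ERβ, which Esr1 and Esr2 encode. The bound receptors act as transcription factors at oestrogen response elements, paired copies of GGTCA in opposite orientation, or through other factors on DNA. Gper1 encodes a membrane receptor coupled to G proteins that responds to oestrogen. Pgr, the progesterone receptor gene, and Greb1, whose product is a cofactor of ERα in breast cells, are standard readouts of receptor activity in uterus and breast. In bone, oestrogen restrains resorption, and ERα is known as the receptor through which most of its protection of bone mass runs.

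The bases before the start sites of the receptor genes and of Pgr are shown because a bound receptor could act there on its own gene or on its target. RefSeq start sites of build GRCr8 were matched for 3 of the 5 genes, Esr1, Esr2 and Pgr, and the 250 bases before each are printed 5′ to 3′ on the gene's strand, with capitals on every match to the motifs searched. They lie at chr1:43641845-43642094 on the plus strand, chr6:100644710-100644959 on the minus strand and chr8:14354148-14354397 on the plus strand.
Esr1: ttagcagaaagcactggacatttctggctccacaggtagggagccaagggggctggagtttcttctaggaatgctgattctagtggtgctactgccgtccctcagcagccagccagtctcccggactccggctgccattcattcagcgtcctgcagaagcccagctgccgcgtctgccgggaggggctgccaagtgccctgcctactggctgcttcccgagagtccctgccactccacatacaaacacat
Esr2: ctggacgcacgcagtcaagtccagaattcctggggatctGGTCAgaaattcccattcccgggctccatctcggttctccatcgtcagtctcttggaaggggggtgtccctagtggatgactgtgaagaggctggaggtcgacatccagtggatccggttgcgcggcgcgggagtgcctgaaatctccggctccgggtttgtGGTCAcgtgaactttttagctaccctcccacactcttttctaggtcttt
Pgr: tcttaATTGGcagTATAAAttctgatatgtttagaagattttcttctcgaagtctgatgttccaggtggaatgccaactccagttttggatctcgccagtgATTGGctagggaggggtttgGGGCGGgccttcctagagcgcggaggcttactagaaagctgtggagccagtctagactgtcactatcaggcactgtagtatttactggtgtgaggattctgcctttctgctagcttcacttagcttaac

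The motifs were searched on both strands: the full response element GGTCANNNTGACC, its half-site GGTCA, the AP-1 site TGANTCA, the GC box GGGCGG, the TATA box spelled TATAAA and the CCAAT box. The full element contains 2 half-sites, and none of the other motifs contains another. No full element is in these 3 windows, and 0.0239% of the 33469 RefSeq promoters of the same length hold one. Esr2 has 2 half-sites, at -211 to -207 and -49 to -45 from the start site, and 35.4% of all promoters hold at least 1. Pgr has CCAAT on the opposite strand at -245 to -241 and -149 to -145 (34.0% of promoters), TATAAA at -237 to -232 (12.9%) and a GC box at -129 to -124 (30.5%). None of the letters searched is in the Esr1 window, whose GC content is 59.6%, against 46.8% for Pgr and a median of 51.2% over all promoters. A match is a description of the letters and not of binding.

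Library totals ran from 64472700 to 74255667 counts. Summed osteoblast markers, 7 genes with Col1a1 and Bglap among them, spanned 2580 to 83300 CPM (counts scaled to library size), lowest in YJT3 and YJZYT3, and markers of red cells, neutrophils, B cells, fat, vessels and skeletal muscle were also present. Levels below are CPM, with TMM scaling factors, within a gene, and FPKM, which also divides by gene length, between genes. Fold changes come from edgeR's quasi-likelihood test over the 17657 genes that passed a filter on low counts, on the log2 scale, with a standard error (SE) and p-values adjusted over all tested genes, and a gene passes at an adjusted p under 0.05. Esr1, Gper1, Pgr and Greb1 passed the filter and Esr2 did not.

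All 5 transcripts were scarce in bone. Per length, Gper1 had the highest mean at 0.718 ± 0.402 FPKM (SD, n = 15), followed by Esr1 at 0.455 ± 0.27, Pgr at 0.285 ± 0.107, Greb1 at 0.133 ± 0.0853 and Esr2 at 0.00442 ± 0.0136. These means stood at the 38.6th, 35.0th, 31.6th, 26.1th and 4.57th percentile of the table. The spreads of neighbours in this order overlapped down to Greb1: Gper1 exceeded Esr1 in 11 of the 15 libraries, Esr1 exceeded Pgr in 12, and Pgr exceeded Greb1 in 12. Greb1 exceeded Esr2 in 15 of 15. The plot of FPKM by group shows each library.

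**Figure D1:**
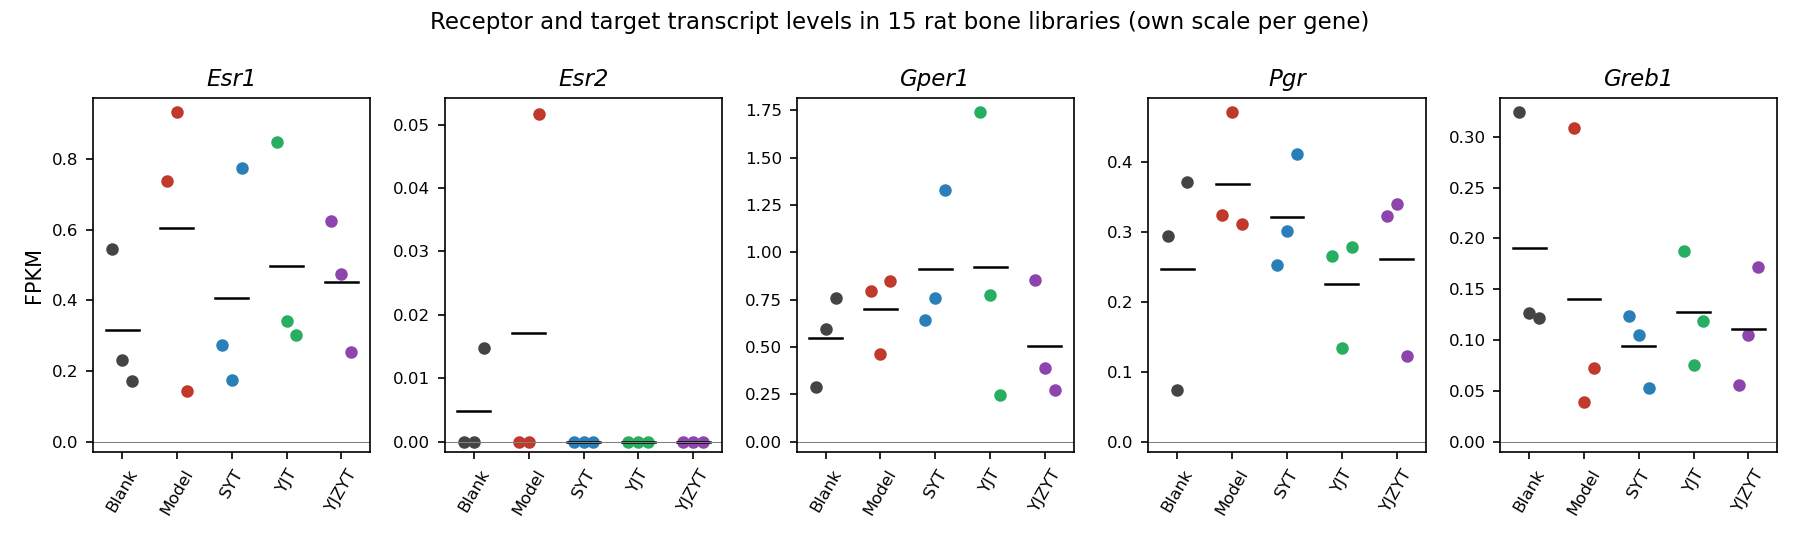
FPKM (vertical axis, own scale for each gene) of the 3 receptors and 2 targets in the 3 libraries of each group; points are libraries and black lines group means. Libraries of every group overlap with those of Blank for Esr1, Gper1, Pgr and Greb1, and Esr2 is above 0 in Blank3 and Model3 only.

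Esr2, the ERβ gene (ENSRNOG00000005343), was at the limit of detection. It had 4 counts in Blank3, 12 in Model3 and 0 in the other 13 libraries. A count of 0 allows up to 3 counts, or 0.0397 to 0.055 CPM by library, and such limits cover counting error only. Counts of 4 occurred 5143 times in the whole table against 3519 for 3 and 2314 for 5, an unevenness of the deposited values whose source is not known, so the 4 counts of Blank3 are read with care. Mean FPKM of Esr1 was 103 times that of Esr2, a ratio that rests on 16 Esr2 counts in all and was 456 without Model3. No fold change between groups is given for Esr2. The deposited coordinates name no genome build, and in them the gene spans chr6:99164357-99214251 on the minus strand.

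Esr1, the ERα gene (ENSRNOG00000019358), was detected in every library and varied as much within groups as between them. It stood at 3.54, 1.66 and 1.11 CPM in Blank1 to Blank3. Model1, Model2 and Model3 had 4.78, 6.49 and 0.959 CPM, which makes the Model group home to both the highest and the lowest library of the series. The 3 SYT libraries were at 2.42, 1.32 and 5.86 CPM, those of YJT at 6.23, 2.81 and 2.00 and those of YJZYT at 4.46, 3.43 and 1.96. Group means ran from 2.1 ± 1.27 CPM in Blank through 3.2 ± 2.37 in SYT, 3.28 ± 1.25 in YJZYT and 3.68 ± 2.24 in YJT to 4.08 ± 2.83 in Model (SD, n = 3), and no neighbours in that order differed beyond their spread. With 71 to 462 counts a library, counting error was about 6.69%, while the libraries' coefficient of variation was 57.9%.

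No difference in Esr1 passed the test. Model against Blank had a log2 fold change of 0.95 (SE 0.72, edgeR adjusted p = 0.818), with a 95% interval from 0.656-fold to 5.71-fold. The mean of the 4 ovariectomized groups against Blank gave 0.75 (SE 0.60, edgeR adjusted p = 0.705, 0.688-fold to 4.12-fold). Against Model, SYT, YJT and YJZYT had -0.35, -0.15 and -0.31, each with an SE of 0.71 to 0.72 (edgeR adjusted p = 1, 0.975 and 0.943). These 3 contrasts share the Model libraries. The sign of each turned with single libraries: the 3 values were 0.16, 0.36 and 0.20 without Model2, SYT was 0.02 without SYT2, and YJT was 0.04 without Model1, 0.01 without YJT2 and 0.15 without YJT3. Model against Blank was 0.45 without Model2 and 1.51 without Blank1. The entry spans chr1:41192824-41594796 on the plus strand, lists 4 transcripts and overlaps 3 other entries, 1 of them on the opposite strand.

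Gper1 (ENSRNOG00000001287), the membrane receptor gene, ranged from 0.334 CPM in YJT3 to 2.64 in YJT1, so the extremes again lay in 1 group. Blank libraries had 0.39, 0.882 and 1.01 CPM and Model libraries 1.07, 0.674 and 1.15. In SYT the values were 1.17, 1.16 and 2.08 CPM, all above the Model libraries by a narrow margin. YJT2 had 1.33 CPM, and YJZYT libraries had 1.25, 0.578 and 0.433. Group means were 0.753 ± 0.435 CPM in YJZYT, 0.76 ± 0.326 in Blank, 0.963 ± 0.254 in Model, 1.43 ± 1.16 in YJT and 1.47 ± 0.527 in SYT (SD, n = 3), and neighbours in this order overlapped.

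The largest Gper1 contrast was SYT against Model, at 0.61 (SE 0.65, edgeR adjusted p = 1, 0.577-fold to 4.05-fold). Non-overlap with the first group higher occurred for 3.24% of tested genes in that contrast, and on the FPKM scale the Gper1 groups did overlap (0.644 to 1.33 in SYT, 0.465 to 0.85 in Model). Model against Blank gave 0.34 (SE 0.65), the 4 ovariectomized groups against Blank 0.55 (SE 0.53), YJT against Model 0.57 (SE 0.65) and YJZYT against Model -0.35 (SE 0.65), with edgeR adjusted p-values from 0.772 to 0.96. Without YJT1 the YJT value was -0.21, without YJT3 it was 1.04, and without Blank1 the Model against Blank value was -0.02. The Gper1 entry covers 1279 bases at chr12:17309834-17311112 on the minus strand and lies inside LOC498154 on the plus strand. Whether counting used the strand is not stated, so reads of the 2 genes may be shared. LOC498154 had 14.4 times the mean FPKM of Gper1, and the log2 CPM of the pair had r = -0.0817 and Spearman's rho = 0.0964 over the 15 libraries (permutation p = 0.772 and 0.732, adjusted p = 0.851 for both over 43 relations examined; r = -0.229 without SYT1 and YJT2).

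Pgr (ENSRNOG00000006831), the progesterone receptor gene and a direct ERα target elsewhere, had its lowest mean CPM in Blank, by a narrow margin below YJT. In FPKM the YJT mean was the lowest, at 0.226 against 0.247 in Blank. Blank libraries were at 0.941, 0.26 and 1.18 CPM, and Blank2, with 18 counts, was the lowest library of the series. Model libraries had 1.04, 1.63 and 1.01 CPM, SYT libraries 1.10, 1.10 and 1.55, YJT libraries 0.978, 0.55 and 0.909 and YJZYT libraries 1.13, 1.22 and 0.483. Group means, from low to high, were those of Blank (0.793 ± 0.477 CPM), YJT (0.812 ± 0.23), YJZYT (0.946 ± 0.404), Model (1.23 ± 0.348) and SYT (1.25 ± 0.259; SD, n = 3), and no neighbours differed beyond their spread. The coefficient of variation over all libraries was 36.1%, the smallest of the 4 tested genes, at 18 to 116 counts a library.

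Model against Blank gave 0.63 for Pgr (SE 0.53, edgeR adjusted p = 0.85, 0.697-fold to 3.42-fold) and the 4 ovariectomized groups against Blank 0.39 (SE 0.43, edgeR adjusted p = 0.803, 0.688-fold to 2.5-fold). The second value was -0.03 without Blank2, and the first 0.22. YJT against Model was -0.59 (SE 0.53, edgeR adjusted p = 0.856), with all 3 YJT libraries below all 3 Model libraries, which 4.92% of tested genes also showed in that direction. SYT and YJZYT against Model were 0.03 and -0.37, both with SE 0.53, and the first turned to -0.20 with no scaling factors beyond library totals. The gene spans chr8:7128656-7187796 on the plus strand, and no other entry overlaps it.

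Greb1 (ENSRNOG00000024651), the ERα cofactor and target gene, had its highest libraries in 2 different groups. Blank1 was at 2.62 CPM and Model1 at 2.50, while the other Blank libraries had 1.13 and 0.98 and the other Model libraries 0.351 and 0.595. SYT libraries were at 1.37, 0.979 and 0.502 CPM, YJT libraries at 1.73, 0.799 and 0.989 and YJZYT libraries at 0.505, 0.963 and 1.66. Group means, from high to low, were those of Blank (1.58 ± 0.908 CPM), YJT (1.17 ± 0.494), Model (1.15 ± 1.18), YJZYT (1.04 ± 0.584) and SYT (0.952 ± 0.437; SD, n = 3), with every pair of neighbours overlapping.

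Greb1 did not pass in any contrast. It had -0.46 in Model against Blank (SE 0.72, edgeR adjusted p = 0.939, 0.25-fold to 2.13-fold) and -0.55 in the 4 ovariectomized groups against Blank (SE 0.55, edgeR adjusted p = 0.775, 0.302-fold to 1.54-fold). Without Blank1 these were 0.08 and 0.02, and without Model1 they were -1.80 and -0.89, so both values depended on single libraries. SYT, YJT and YJZYT against Model had -0.27, 0.03 and -0.14, each with SE 0.72, and 1.05, 1.37 and 1.21 without Model1. The YJT value was -0.12 with no scaling factors. The gene spans chr6:41932244-42002819 on the minus strand with no overlapping entry.

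Across the 4 tested genes and 5 contrasts, 0 of 20 differences passed and 20 of 20 intervals included no change. The smallest unadjusted p of edgeR was 0.21, and DESeq2 passed none of the 20 either. Genes passing over the whole table were 0.0227% of those tested in Model against Blank, 0.017% in the 4 ovariectomized groups against Blank, and 0.0% in each of the contrasts of SYT, YJT and YJZYT with Model. At an unadjusted p under 0.05 those shares were 8.19%, 11.4%, 3.16%, 6.58% and 7.29%, and at that level too no member was called. Over the whole table edgeR passed 0 genes in the last 3 contrasts, where DESeq2 passed 27, 96 and 64. Groups were apart for 1 of the 4 members in SYT (Gper1, higher) and 1 in YJT (Pgr, lower) and for none in Model or the 12 ovariectomized libraries against Blank or in YJZYT against Model. Over all tested genes the first group lay wholly higher or lower for 7.69% and 7.99% in Model against Blank, 0.753% and 0.748% in the 12 libraries against Blank, 3.24% and 2.65% in SYT, 6.83% and 4.92% in YJT and 7.35% and 5.57% in YJZYT against Model. In the test for any difference among the 5 groups, which 0.0227% of genes passed (7.71% at an unadjusted p under 0.05), edgeR adjusted p-values were 0.927 for Esr1, 0.846 for Gper1, 0.886 for Pgr and 0.96 for Greb1. Intervals reached down to 0.25-fold for Greb1 and up to 5.71-fold for Esr1, both in Model against Blank. The narrowest was that of Pgr in the 4 ovariectomized groups against Blank, from 0.688-fold to 2.5-fold. Fewer cells of a type and less RNA per cell cannot be told apart in bulk bone.

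**Figure D2:**
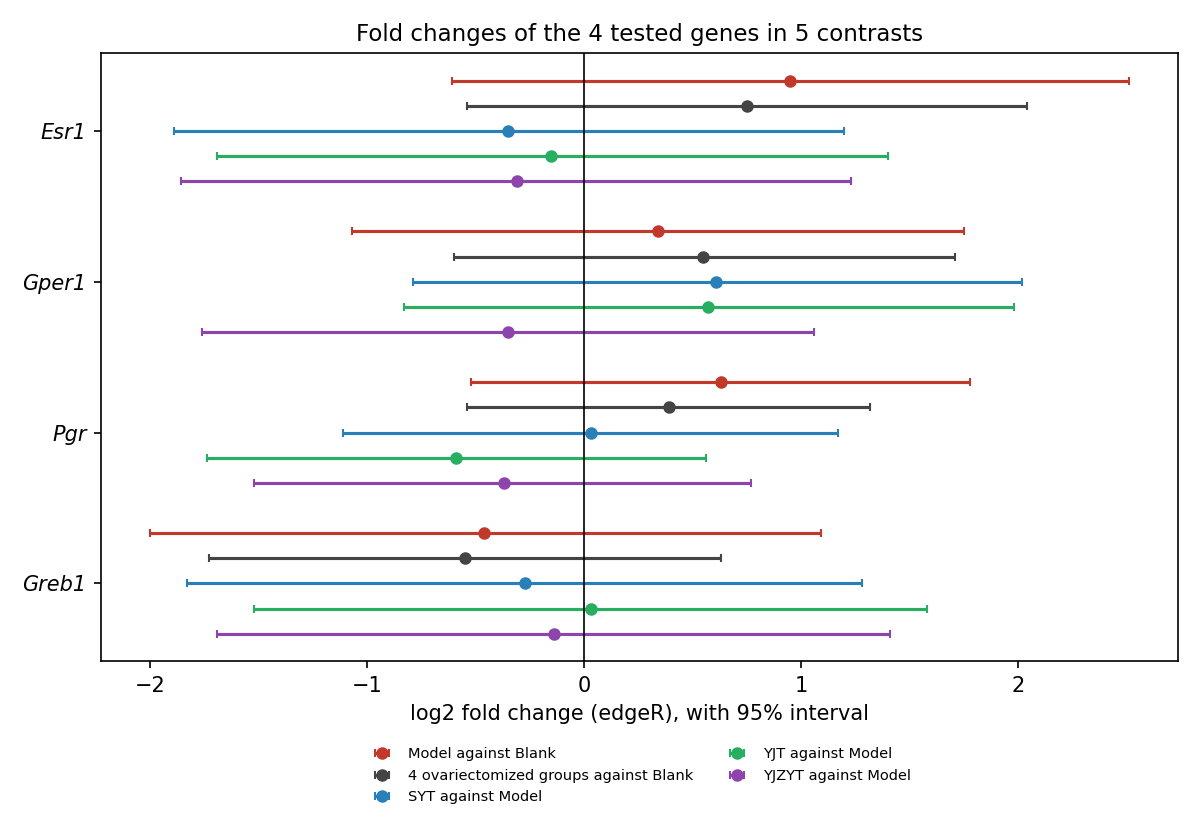
Log2 fold changes (horizontal axis) of the 4 tested genes in 5 contrasts, coloured as in the key, with 95% intervals from the edgeR fit of 15 libraries. Each of the 20 intervals crosses 0; the 3 contrasts with Model share its libraries.

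The variability of these genes was above that of most tested genes of any level, with no comparison to genes of like counts. The edgeR biological coefficient of variation was 60.2% for Esr1, 55.4% for Gper1, 45.4% for Pgr and 60.6% for Greb1, at the 80.6th, 77.4th, 68.2th and 80.8th percentile of tested genes. Joint variation of the 4 over the 15 libraries was neither established nor excluded. Pearson's r of log2 CPM was 0.369 for Esr1 with Pgr, 0.237 for Esr1 with Gper1 and 0.19 for Gper1 with Pgr. It was -0.0439 for Esr1 with Greb1, -0.215 for Gper1 with Greb1 and -0.338 for Pgr with Greb1. Spearman's rho in that order was 0.361, 0.25, 0.214, -0.0714, -0.275 and -0.582. Permutation p-values of r were 0.18, 0.392, 0.502, 0.874, 0.437 and 0.22, those of rho 0.188, 0.367, 0.442, 0.801, 0.32 and 0.0252, and adjusted over 43 relations none was under 0.271. Leaving out the 2 libraries farthest from the median of the second gene gave r of 0.27, 0.286, 0.0345, 0.12, -0.167 and -0.26.

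Of 9 sets of cell type markers, osteoblast markers had the largest Pearson's r with a member, and macrophage and osteoclast markers the largest Spearman's rho. Gper1 had r = 0.725 with the osteoblast score, the median deviation of 7 markers in log2 CPM (permutation p = 0.0022, adjusted p = 0.0946; rho = 0.586, permutation p = 0.0239, adjusted p = 0.271, n = 15, over 43 relations). YJT3 and YJZYT3, with the lowest osteoblast scores of -2.29 and -1.83, had the lowest and the third lowest Gper1. Without these 2 libraries r was 0.492 (permutation p = 0.0886), so the relation rests in part on them. Deviations from the group means, with YJT3 and YJZYT3 included, had r = 0.877, with no test made. The adjusted values did not pass 0.05. Macrophage and osteoclast markers had opposite signs for the 2 targets. Pgr had r = 0.491 and rho = 0.629 with them (permutation p = 0.0597 and 0.0142, adjusted p = 0.503 and 0.271; r = 0.195 without YJT2 and YJZYT3). Greb1 had r = -0.54 and rho = -0.614 (permutation p = 0.0386 and 0.0167, adjusted p = 0.503 and 0.271; r = -0.704 without YJT2 and YJZYT3). The part of cell content in any member's spread was not tested.

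**Figure D3:**
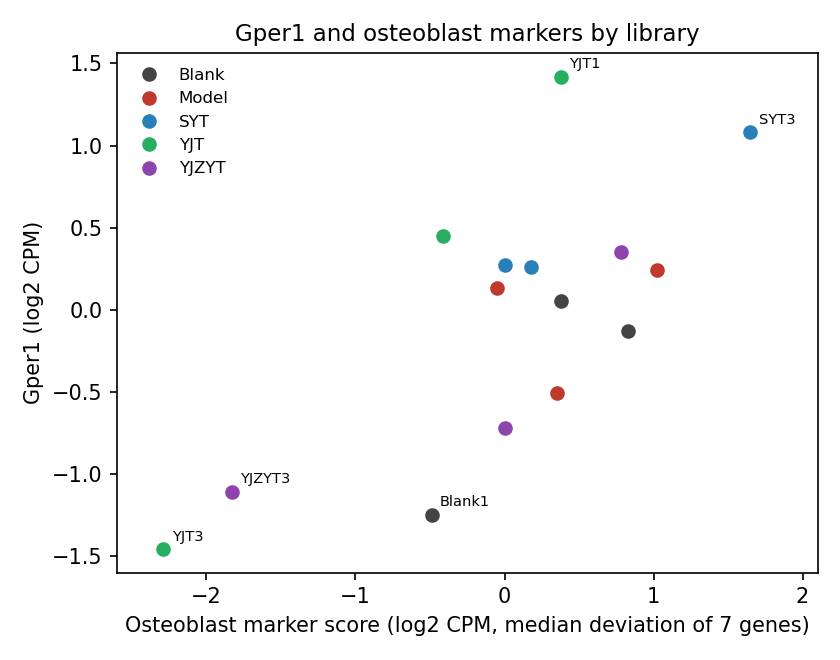
Gper1 in log2 CPM (vertical axis) against the osteoblast marker score (horizontal axis) in the 15 libraries, coloured by group, with 5 libraries named. YJT3 and YJZYT3 sit at the lower left with scores of -2.29 and -1.83; r is 0.725 with them and 0.492 without.

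For each tested member the 5 genes with the most similar log2 CPM over the 15 libraries were listed, as a description with no test. Gper1 was most like Hoxd4, a homeobox gene (r = 0.916), Fjx1, a secreted protein gene (0.911), Nfatc4, a transcription factor controlled by calcineurin (0.909), Phlda1 (0.909) and Krt8, a keratin gene (0.896). These stayed at 0.866 or above with any 1 library left out, but were picked for high r in the same libraries. Esr1 had looser matches: Dda1 (0.757), Hyi (0.744), Gcfc2 (0.716), Stx8, a SNARE protein gene (0.692), and Dnah8, an axonemal dynein gene at only 0.00601 FPKM (0.691). Pgr was most like Fam50a (0.908), Zfp708 (0.85), Misp3 (0.77), Mlkl, a kinase-like protein of necroptosis (0.765), and Ndufa1, a subunit of respiratory complex I (0.762), and the last had 0.374 without Blank2. Greb1 was most like Ear1, an eosinophil-type ribonuclease gene (0.819), Osbpl9 (0.805), Fam227a (0.799), Ret, a receptor tyrosine kinase gene (0.772), and Smpdl3b (0.766).

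Other genes of oestrogen synthesis and action were taken from 8 lists that hold 95 genes, of which 91 were found in the table and 84 were tested. By edgeR none passed in any contrast. An unadjusted p under 0.05 occurred for 8 of the 84 in Model against Blank (9.52%, with 4 higher and 4 lower), beside 8.19% of all tested genes. In the 4 ovariectomized groups against Blank it occurred for 14 (16.7%, with 4 higher and 10 lower), beside 11.4% of all. For SYT, YJT and YJZYT against Model the counts were 7 (8.33%), 10 (11.9%) and 5 (5.95%), beside 3.16%, 6.58% and 7.29% of all.

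**Figure D4:**
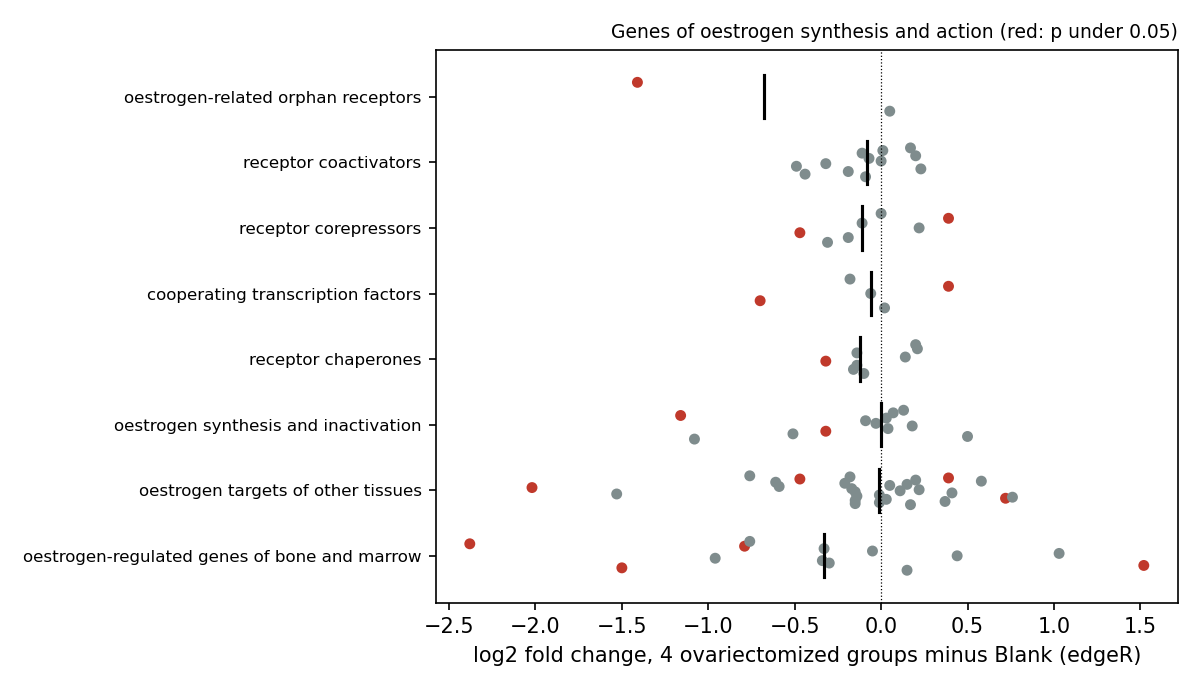
Log2 fold change of the 4 ovariectomized groups against Blank (horizontal axis) for the tested genes of 8 lists (rows); points are genes, red where the unadjusted p was under 0.05, and black bars are list medians. Krt19, listed at 0 in all Blank libraries, is left out of its row and of the median drawn there; the lowest median is -0.68, of 2 orphan receptors, and the next is -0.33.

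The source of oestrogen in the tissue was read from its enzymes. Cyp19a1, aromatase, which makes oestrogens from androgens, was scarce at 0.0779 ± 0.0517 FPKM (SD, n = 15). It was at 0.484, 0.39 and 0.411 CPM in Blank1 to Blank3 and at 0.337, 0 and 0.054 in Model1 to Model3, so the groups did not overlap, as for 7.99% of tested genes with Model lower. The log2 fold change was -1.70 (SE 1.29, edgeR adjusted p = 0.817). The other 9 libraries had 0 to 0.466 CPM, and 1 of them, YJZYT3, lay within the Blank range. Of the 12 tested genes of synthesis and inactivation, 6 were higher and 6 lower in Model than in Blank, with a median of 0.02, equal to that of all genes. Sult1a1, a sulfotransferase that inactivates phenolic compounds including oestrogens, had the smallest p. It stood at 19.2 ± 5.19 CPM in Blank (SD, n = 3), 5.93 ± 2.52 in Model (n = 3) and 9.17 ± 4.6 over the ovariectomized groups (n = 12). Single libraries were at 13.8 to 24.1 CPM in Blank and 3.3 to 8.33 in Model. Sult1a1 spanned 8.21 to 17.9 CPM in SYT and 7.48 to 15.6 in YJT, both overlapping Blank, and 4.97 to 8.43 in YJZYT. Its log2 fold change was -1.69 in Model against Blank (SE 0.41, edgeR adjusted p = 0.301; DESeq2 adjusted p = 0.00804) and -1.16 in the 4 groups against Blank (SE 0.29, edgeR adjusted p = 0.194; DESeq2 adjusted p = 0.0329).

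The machinery around the receptors showed small differences. Coactivators had medians of -0.01 in Model against Blank and -0.08 in the 4 groups against Blank over 12 genes, and corepressors -0.09 and -0.11 over 7 genes. Safb, a corepressor of ERα, was at 64.2 to 72.1 CPM in Blank and at 75.2 to 106 in the 12 ovariectomized libraries, a separation with the latter higher that 0.753% of tested genes showed. Its log2 fold change was 0.39 (SE 0.11, edgeR adjusted p = 0.226; DESeq2 adjusted p = 0.0257). Crebbp, a histone acetyltransferase coactivator, had 0.44 in Model against Blank (SE 0.16, edgeR adjusted p = 0.47). Rara, a retinoic acid receptor gene that is also an ERα target in breast cells, had 0.39 in the 4 groups against Blank (SE 0.11, edgeR adjusted p = 0.225; DESeq2 adjusted p = 0.0293). Its group means were 31.5 CPM in Blank and 31.7 in YJZYT, against 41.8 for Model, 46.4 for YJT and 47.1 for SYT. All 3 YJZYT libraries lay below those of Model (-0.40, SE 0.14, edgeR adjusted p = 0.638). Of all tested genes, 5.57% lay apart in that direction in that contrast. Foxa1 and Tfap2c, which open chromatin for ERα in breast cells, had at most 4 counts in any library.

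Nrip1, a corepressor that ERα itself induces in breast cells, was named after its values were seen. It stood at 28.9 to 32.3 CPM in Blank and at 16.3 to 28.7 in the 12 ovariectomized libraries, with no overlap, as for 0.748% of tested genes in that direction. The log2 fold change was -0.47 (SE 0.15, edgeR adjusted p = 0.261). Summed fat cell markers, at 223 to 300 CPM in Blank and 25.8 to 213 in the 12 others, were apart in the same direction. So were skeletal muscle markers, at 3260 to 4840 and 29.6 to 2910 CPM, while the other marker sets overlapped. The part of cell content in the Nrip1 values was not tested. Of the 84 listed genes, Safb and Nrip1 were the ones whose Blank libraries lay apart from all 12 others in CPM. On the FPKM scale both overlapped. Nrip1 was at 3.25 to 3.98 FPKM in Blank and 1.45 to 3.49 in the 12 others, and Safb at 17.6 to 22.1 and 18.9 to 29.5. Pdzk1, an oestrogen-induced scaffold protein gene named in the same way, had 0.72 in the opposite direction (SE 0.28, edgeR adjusted p = 0.339).

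Receptor chaperones, which hold steroid receptors ready for ligand, were lower in SYT and YJT than in Model for 7 of 8 genes each, with medians of -0.30 and -0.28 beside 0.02 and -0.02 over all genes. Model shared these contrasts, and it was higher than Blank for 7 of the 8 (median 0.22), while YJZYT was lower than Model for 6 of the 8 (median -0.18). In SYT and in YJT 3 of the 8 had an unadjusted p under 0.05, beside 3.16% and 6.58% of all tested genes. They were the Hsp90 gene Hsp90aa1 (-0.67 in SYT and -0.64 in YJT), the co-chaperone gene Stip1 (-0.59 and -0.48) and the immunophilin gene Fkbp4 (-0.52 and -0.43), with edgeR adjusted p of 1 in SYT and 0.746 to 0.757 in YJT, and they were picked out after their values were seen. Ppid, the cyclophilin of these complexes, had the smallest p in Model against Blank (0.35, SE 0.18, edgeR adjusted p = 0.674), and Fkbp5 in the 4 groups against Blank (-0.32, SE 0.15, edgeR adjusted p = 0.423).

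Of the 29 tested oestrogen targets known from other tissues, 16 were higher and 13 lower in Model than in Blank, with a median of 0.03 beside 0.02 over all genes, and Krt19, at 0 in all Blank libraries, did not move that median when set at its bound. The cell cycle gene Ccnd1 had 0.04 (SE 0.55), Myc -0.10 (SE 0.15), the protease gene Ctsd -0.03 (SE 0.14), Igfbp4 0.10 (SE 0.57) and complement C3 0.07 (SE 0.56). Others of the list differed more, in both directions. Among them were Tpd52l1 (-0.78, SE 0.54), Stc2 (-0.71, SE 1.0), Rapgefl1 (0.73, SE 0.40) and Mybl1 (0.51, SE 0.34). Hspb8, a small heat shock protein gene, had the smallest p: it was at 27.9 to 37.6 CPM in Blank and 1.35 to 10.9 in Model (-2.55, SE 0.68, edgeR adjusted p = 0.309; DESeq2 adjusted p = 0.00929). Its means were 16.8 CPM for SYT, 21.1 for YJT and 2.06 for YJZYT. Esrrg, an orphan receptor gene related to Esr1 that binds no oestrogen, was also higher on average in Blank (1.88 CPM), SYT (1.46) and YJT (2.05) than in Model (0.374) and YJZYT (0.222; Model against Blank -2.33, SE 0.83, edgeR adjusted p = 0.446). Its relative Esrra had -0.03. Both Hspb8 and Esrrg are abundant in skeletal muscle, and the summed CPM of 6 muscle markers was 3260 to 4840 in Blank, 179 to 614 in Model, 605 to 2910 in SYT, 2180 to 2640 in YJT and 29.6 to 583 in YJZYT. The part of muscle RNA in these values was not tested. Nor was it tested for Sult1a1, whose means were also higher in Blank, SYT and YJT than in Model and YJZYT.

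Genes that oestrogen regulates in bone and marrow had a median of -0.21 in Model against Blank and -0.33 in the 4 groups against Blank, beside 0.02 and -0.01 over all genes, with 0 of 13 passing. The list was not split by the direction in which oestrogen moves each gene, so its median has no expected sign. Markers of marrow stroma (5 of 5 lower in both contrasts, medians -0.36 and -0.72), endothelium (4 of 4, -0.54 and -0.61) and fat cells (5 of 5, -1.12 and -0.97) were lower too, none past the threshold. Their summed levels were 930 to 1360, 131 to 174 and 223 to 300 CPM in Blank and 285 to 1350, 50.2 to 211 and 25.8 to 213 CPM in the 12 other libraries, with no marker at 0 in all libraries. In the same contrasts the medians of osteoblast markers were 0.24 and -0.01, and those of macrophage and osteoclast markers 0.17 and -0.07. B cell markers had 0.76 and 0.38, neutrophil markers 0.26 and 0.57, red cell markers -0.63 and 0.08 and skeletal muscle markers -3.04 and -2.2. Cxcl12, a stromal chemokine gene, is in both the bone and marrow list and the stroma markers. The part of these cell types in the list's values was not tested. In the second contrast 4 of the 13 listed genes had an unadjusted p under 0.05, of which 3 were lower, beside 11.4% of all tested genes. Besides Sost they were Tnfsf11 (-1.50, SE 0.43, edgeR adjusted p = 0.226), Igf1 (-0.79, SE 0.33, edgeR adjusted p = 0.376) and Faslg (1.52, SE 0.58, edgeR adjusted p = 0.339). Sost, the gene of the osteocyte Wnt inhibitor sclerostin, had the smallest p there: Blank libraries were at 21.1, 5.7 and 17.3 CPM, and the 12 others ranged from 0.802 to 17.0 with a median of 1.94 (-2.38, SE 0.58, edgeR adjusted p = 0.177; DESeq2 adjusted p = 0.0199). In Model against Blank Sost had -2.12 (SE 0.86, edgeR adjusted p = 0.526).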

How the data were processed

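The authors' deposited table gave whole-number counts per gene, which were tested, and FPKM values, named so per the file headers, for levels between genes. According to the submitters' processing notes, edgeR, DESeq2, StringTie 1.3.4d, UMI-tools, HISAT2 2.0.4 and cutadapt 1.9 were used, in roles not stated. The sources used here give no genome build, annotation, counting step or strand setting. Second strands were dUTP-marked, per the labels' protocols.

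Counts were tested with edgeR 4.0.16 in R 4.3.3: filterByExpr (17657 tested, 4811 left out), TMM, and 1 robust quasi-likelihood fit of 15 libraries with a mean per group (10 residual degrees of freedom), Benjamini-Hochberg adjustment, threshold 0.05, two-sided. The code was tested on simulated data. Log2 CPM used a prior count of 2. Correlations had two-sided permutation tests of 100000 resamples. Alternatives were DESeq2 1.42.0, limma 3.58.1 on log2(FPKM + 1) and log2(FPKM + 0.1), other scaling and filters, a replicate block and left-out libraries. No batch is labelled.

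Named were the 5 members, Cyp19a1, the 5 genes most like each member and, from each list, up to 4 genes past the threshold and the smallest p in each contrast with Blank. Genes given beyond that rule were chosen after their values were seen. Members and lists were chosen with earlier results of these data known.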

Additional observations from a re-analysis of the deposited data

How the results depend on the processing

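No alternative that gave a value brought 1 of the 4 tested members past the threshold (smallest adjusted p 0.376), and direction held in 134 of 156 member values with 1 library left out and in 154 of 160 others. The exceptions were Esr1 in YJT (0.15 without YJT3 and YJZYT3), Pgr in SYT (-0.20 unscaled, -0.00 with a replicate block, -0.15 by limma on log2(FPKM + 0.1) over genes passing the count filter, a setting added after seeing the data) and Greb1 in YJT (-0.12 unscaled) and YJZYT (0.37 with the block), each against Model, and the cause was not tested. Leaving out 1 library gave -1.13 to 0.16 for Esr1 in SYT, -0.76 to 0.36 in YJT and -0.74 to 0.20 in YJZYT against Model. Gper1 ranged from -0.02 to 0.55 in Model against Blank and from -0.21 to 1.04 in YJT against Model. Pgr ranged from -0.03 to 0.77 in the 4 groups against Blank and from -0.16 to 0.28 in SYT against Model. Greb1 ranged from -1.80 to 0.08 in Model and -0.89 to 0.02 in the 4 groups against Blank, and from -0.70 to 1.05 in SYT, -0.40 to 1.37 in YJT and -0.64 to 1.21 in YJZYT against Model.

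Counts of genes passing over the whole table were small and moved with the setting. Model against Blank had 4, and 0 unscaled, 0 with the block, 8 from its own 6 libraries, 0 without YJT3 and YJZYT3, 289 by DESeq2, 40 and 2 by limma on log2(FPKM + 1) and log2(FPKM + 0.1), 7 by the added limma setting and 0 to 5 with 1 library left out. The 4 groups against Blank had 3, and 5 unscaled, 0 with the block, 0 without YJT3 and YJZYT3, 0 with the 12 libraries as 1 group, 361 by DESeq2, 38 and 0 by limma, 16 by the added setting and 0 to 39 with 1 library left out (39 without YJZYT1). SYT, YJT and YJZYT against Model had 0 each, and 27, 96 and 64 by DESeq2, 1 in YJZYT by the added setting, and 0 to 1, 0 and 0 to 1 with 1 library left out. Without scaling, the median of all genes shifted by -0.13 in the 4 groups against Blank and by -0.24, -0.14 and -0.14 in SYT, YJT and YJZYT. Limma with a minimum of 1 FPKM in 3 libraries gave no value for a member. Replicate numbers did not pair the libraries: 9 of 30 same-numbered pairs had a correlation of deviations over 0.1 (-0.418 to 0.4), and 5 of 15 libraries matched their own number best. The ratio of Esr1 to Esr2 without Model3 was added after seeing the data.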
